A study of Mus musculus with 12 samples.

Results

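Orphan and adhesion G-protein coupled receptors were followed in cerebellar cortex RNA, captured by its poly(A) tails, from wild-type male mice. Members were the protein-coding genes of the count table whose mouse symbol was Gpr and a number, with or without the ending l1, or Adgr, a family letter and a number. Of 97 symbols of this form 1 was set aside, which left 96 receptors among 54752 genes in the table, 21921 of them protein-coding. Of these, 69 had a Gpr symbol and 27 were adhesion receptors with an Adgr symbol. The rule used names and no measured value.

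All 12 mice were F1 hybrids of C57BL6J and FVB, WT in genotype, and their tissue was taken at 12 weeks of age. Each diet had 4 mice. AL mice were fed ad libitum, and DR mice were kept on dietary restriction, which was deepened in steps and then held until collection. DR mice did not receive their last meal before collection, so restriction and the missed meal cannot be told apart in their values. KD mice received a ketogenic diet, whose composition is not given in the sources used here. The tissue held folia of the hemisphere, paravermis and vermis without the nuclei. Only males of 1 hybrid cross and 1 age were sampled, so the values describe that cross.

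G-protein coupled receptors cross the membrane with a bundle of helices and pass an outside signal to heterotrimeric G proteins or arrestins. Orphan receptors are those for which no ligand, or no agreed ligand, was known when they were named, and several of them signal without one. Adhesion receptors carry long extracellular regions that are cut by autoproteolysis and that bind matrix proteins or partners on neighbouring cells. In the cerebellum, several adhesion receptors of the B and L families act at synapses, while other members are known from Bergmann glia, oligodendrocytes and vessels.

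Between 31712084 and 40798644 reads were counted per library, with a median of 36674269. The receptors together took 0.264% to 0.291% of the counts of a library. All 18 pairs of mice on the same diet differed by more than counting noise, with a chi-square per gene of 4.95 to 11.6, so every mouse was counted as its own replicate. Levels are given as RPKM, reads scaled by exonic length and by library size, when receptors are compared with each other, and as CPM, counts scaled by library size, when mice are compared for 1 receptor. Both were scaled by TMM, which evens out the composition of libraries.

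The receptors spanned a wide range of levels. There were 11 receptors at 10 RPKM or more, 29 between 1 and 10 RPKM, 25 between 0.1 and 1 RPKM and 31 below 0.1 RPKM. The highest was Gpr37l1, a receptor of astrocytes and Bergmann glia that has been linked to prosaposin, at 154 ± 12.5 RPKM (SD, n = 12), in the 99.2nd percentile of the 14776 protein-coding genes that passed the low-count filter over all libraries. The rhodopsin-like orphan Gpr162 followed at 104 ± 5.57 RPKM and Adgrl1, latrophilin 1, the synaptic receptor of teneurins and of alpha-latrotoxin, at 59.8 ± 4.03 RPKM. These 3 kept that order in 12 of 12 libraries, with no overlap between neighbours, and held 12.6%, 14.2% and 18.3% of the receptor counts in the order named. The exonic length in the table was 2269 bases for Gpr37l1, 3838 bases for Gpr162 and 8587 bases for Adgrl1. Of the exonic length of Adgrl1, 15.6% was shared with the gene Gm10644 on the other strand, so its level is uncertain to that degree.

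Behind them came Adgrb1, which takes part in engulfment of dying cells and in spine formation, at 25.6 ± 2.54 RPKM, the class C orphan Gpr158 at 22.4 ± 1.75 RPKM and the lysosomal membrane protein Gpr137 at 18.8 ± 0.723 RPKM. The next were Gpr22 at 16.9 ± 1.02 RPKM, Adgrb2 at 14.5 ± 1.87 RPKM, Gpr63 at 14.1 ± 1.73 RPKM and the Golgi protein Gpr108 at 13.1 ± 0.657 RPKM. The ranges of these neighbours overlapped across libraries, and Adgrb2 exceeded Gpr63 in only 6 of 12. Gpr85, the most abundant of the SREB family of brain orphans, stood at 10 ± 0.408 RPKM and Gpr180 at 8.22 ± 0.534 RPKM. Over these 12 receptors the coefficient of variation between mice lay between 3.85% and 12.9%. Exons of Gpr137 overlapped Bad over 18.7% of their length.

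The families were unequal. Of the 4 L receptors and the 3 B receptors, all were above 1 RPKM. Within the A family Adgra2, a co-receptor for Wnt7 in vessels, was highest at 5.30 ± 0.537 RPKM. Adgrg1, the collagen III receptor of glial precursors, reached 7.52 ± 0.505 RPKM on chromosome 8, while the genes on either side of it, Adgrg5 and Adgrg3, were at 0.039 and 0.0267 RPKM. A like contrast was seen on chromosome 17 between Adgrf5, at 3.66 ± 0.141 RPKM, and its neighbour Adgrf1, at 0.00193 RPKM. Among the receptors of lipids, metabolites and immune cells Gpr146 was highest at 3.05 ± 0.363 RPKM, and among the constitutively active receptors coupled to Gs it was Gpr12 at 2.62 ± 0.308 RPKM. The other highest members of their class were Adgre5 at 2.12 ± 0.169 RPKM, whose exons overlapped Ddx39 over 24.6% of their length, Adgrv1 at 0.0617 ± 0.0102 RPKM and Adgrd1 at 0.0572 ± 0.0205 RPKM. The plot of levels by class sets all 96 on a common axis.

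**Figure D1:**
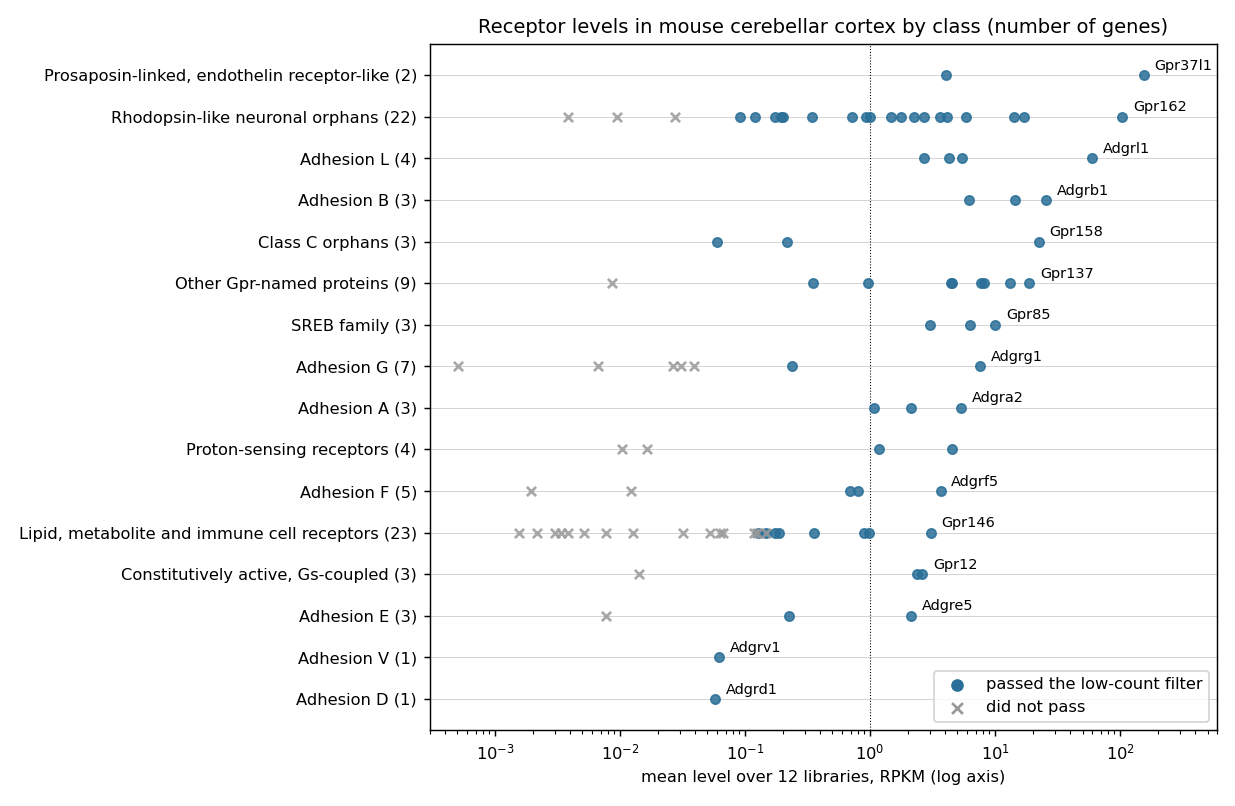
Mean level of each of the 96 receptors over 12 libraries in RPKM on a log axis, by class, with the highest member named in all but 1 class and the number of genes in brackets. Circles passed the low-count filter in a comparison of diets and crosses did not. Gpr37l1 lies farthest right at 154 RPKM, and the dotted line marks 1 RPKM.

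A comparison of diets was possible for 66 receptors, 47 with a Gpr and 19 with an Adgr symbol, of which 12 had a mean below 1 CPM. The same 66 were tested in each comparison. The other 30 had 1 to 106 counts over all 12 libraries together, 19 of them fewer than 20, and no more than 16 in any library. Among adhesion receptors these were Adgrg3, Adgrg2 and Adgrg5, with at most 14, 12 and 9 counts in a library, Adgrf3 with at most 4, Adgre4 and Adgrg7 with at most 3, and Adgrf1 and Adgrg4 with at most 1. Among receptors of lipids, metabolites and immune cells they were Gpr18 with at most 16, Gpr152 with at most 14, Gpr142 and Gpr20 with at most 11, Gpr25 with at most 10 and Gpr84 with at most 7. In the same class Gpr119, Gpr171 and Gpr82 had at most 3 counts in a library, Gpr141, Gpr1 and Gpr39 at most 2, and Gpr174 and Gpr33 at most 1. Others were Gpr83 with at most 13, the proton-sensing receptors Gpr132 and Gpr65 with at most 5 and 4, Gpr50 and Gpr143 with at most 3, and Gpr6 and Gpr149 with at most 2. A change of diet was not detectable in these at this depth.

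The first comparison asked which receptors differ between restricted and freely fed mice. In DR against AL, 6 of the 66 receptors were called at an adjusted p under 0.05 with the quasi-likelihood test of edgeR (Benjamini-Hochberg over 19052 genes), and all 6 were lower on DR. These were the orphans Gpr26, Gpr37, Gpr63 and Gpr101, the proton-sensing Gpr4 and the adhesion receptor Adgrb2. This was 9.09% of the receptors tested, beside 3.06% of all genes. Over all genes 1.32% were called higher and 1.74% lower, and 0 of the 66 receptors were called higher. At a share as low as 1.32%, a count of 0 in 66 does not set the receptors apart. By an unadjusted p under 0.05 there were 14 receptors, 13 lower and 1 higher, which was 21.2% beside 18% of all genes. Scaled over the 8 libraries compared, the diets did not overlap in 15 receptors, 12 lower and 3 higher on DR, which was 22.7% beside 10.8% of all genes. One of the 12, Adgrb3, did overlap when scaled over all 12 libraries, as CPM values are in this report. DR replicate 2 was then at 116 CPM and AL replicate 2 at 115 CPM. Over the 66, 40 log2 fold changes were below 0 and 26 above, with a median of -0.03 beside a median of 0.0036 over all genes. Most receptors had small fold changes in either direction, as the plot of fold changes shows. Calls depended on single mice. Without DR replicate 3 edgeR called 0 receptors, and without AL replicate 1, AL replicate 2, AL replicate 4 or DR replicate 1 it called 2.

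**Figure D2:**
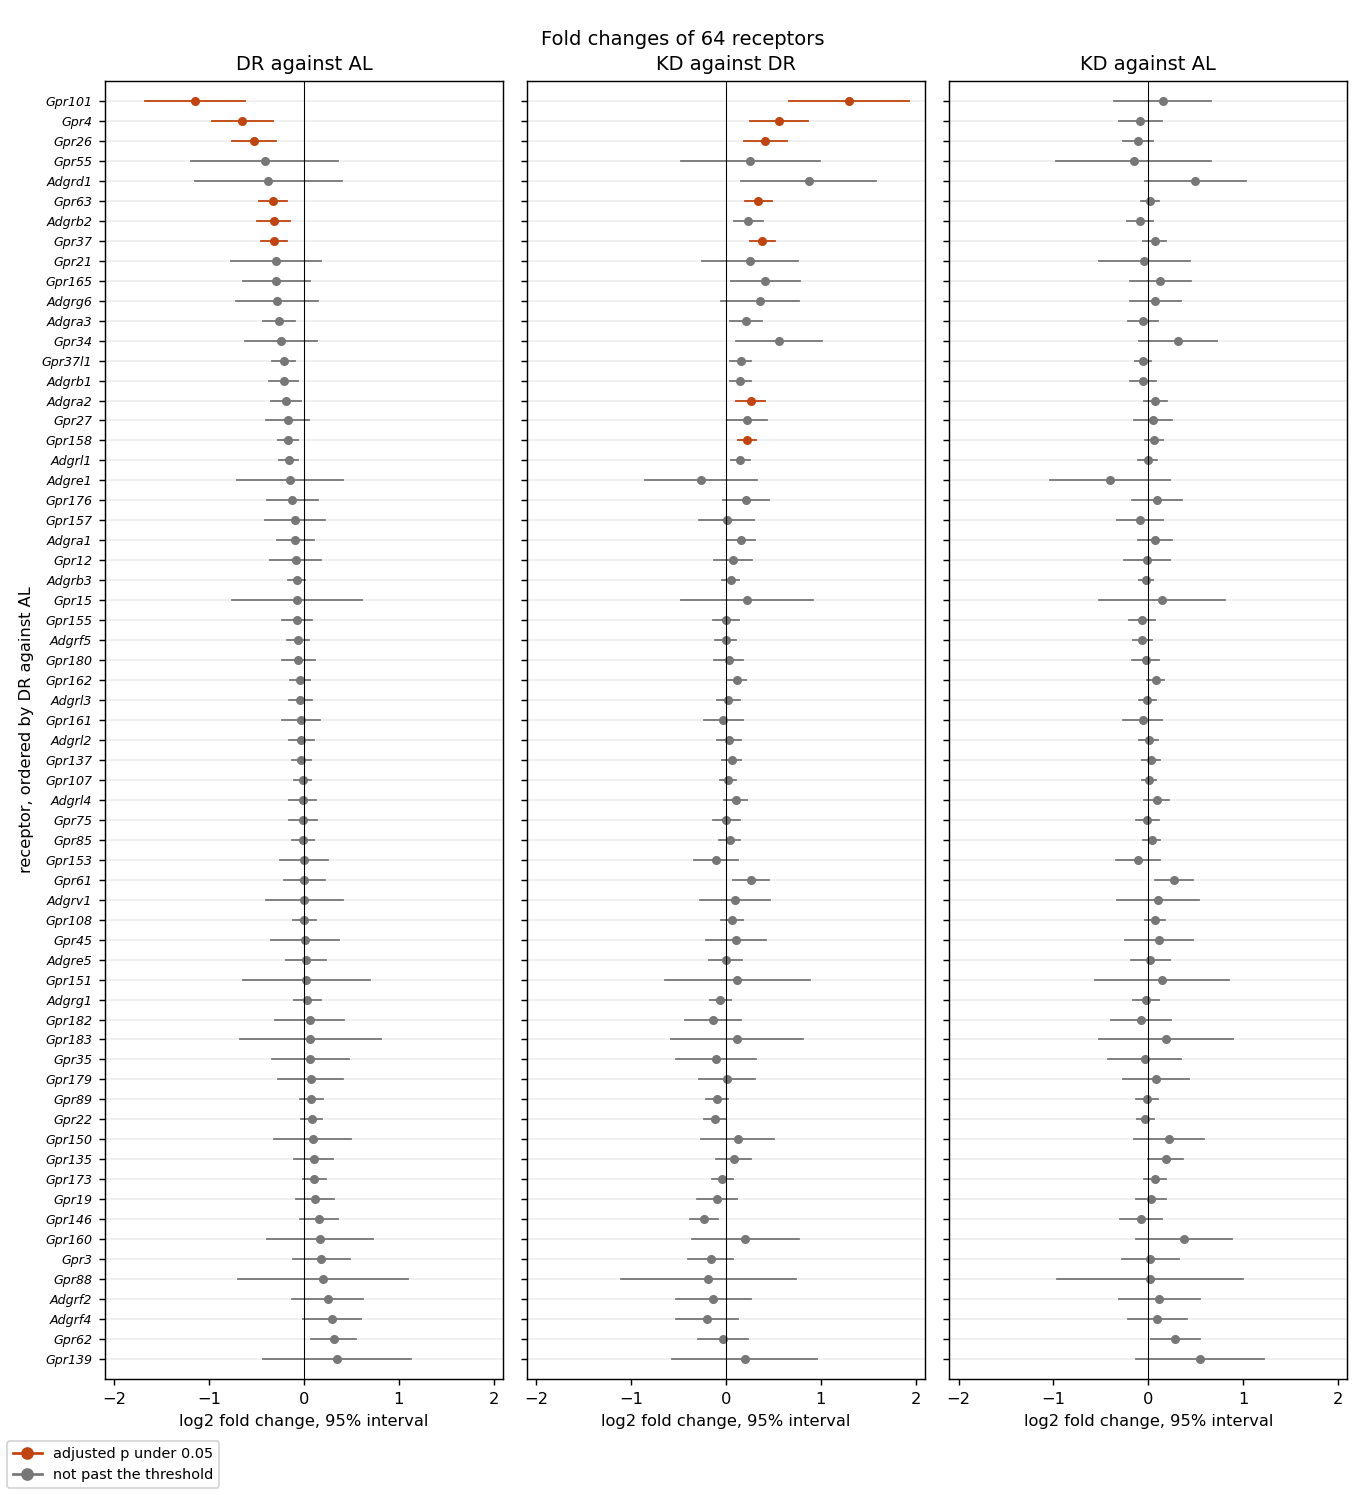
Log2 fold change with its 95% interval for 64 of the 66 receptors tested, in DR against AL (left), KD against DR (middle) and KD against AL (right), ordered by the left panel. Red marks an adjusted p under 0.05: 6 receptors on the left, all below 0, 7 in the middle, all above 0, and 0 on the right.

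The second comparison set the restricted mice against mice on the ketogenic diet. In KD against DR, 7 of 66 receptors were called by the same test, all higher on KD: Gpr37, Gpr63, Gpr158, Gpr101, Gpr4, Gpr26 and Adgra2. This was 10.6% of the receptors beside 4.94% of all genes, of which 2.43% were called higher and 2.51% lower. By an unadjusted p under 0.05 there were 21 receptors, 19 higher and 2 lower, which was 31.8% beside 18.7% of all genes. In 15 receptors, 22.7%, the diets did not overlap, 13 of them higher on KD and 2 lower, beside 11.7% of all genes. The median log2 fold change was 0.09 over the 66 and -0.0024 over all genes. Of the 7, 5 were also called in DR against AL, namely Gpr101, Gpr26, Gpr37, Gpr4 and Gpr63, and both comparisons rest on the same 4 DR mice. Leaving out 1 mouse at a time gave 3 to 8 called receptors, with 3 without KD replicate 1 or KD replicate 3 and 4 without DR replicate 3 or KD replicate 4.

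The third comparison set the ketogenic against the free diet. In KD against AL, 0 of 66 receptors were called by edgeR, and the call rate over all genes was 0% as well, with 0% higher and 0% lower. DESeq2 and the exact test of edgeR also called 0 receptors. At an unadjusted p under 0.05 there were 2 receptors, Gpr61 and Gpr62, both higher on KD. This was 3.03% of the receptors beside 4.87% of all genes, 928 in number. In 2 receptors, 3.03%, the diets did not overlap, beside 2.94% of all genes. The median log2 fold change of the receptors was 0.02. For the 8 receptors called in another comparison the adjusted p was 0.994, and the intervals of the fold change are given with each receptor.

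Gpr37 (chromosome 6, 25665878 to 25690729, minus strand, in GRCm38.p6, as for the genes that follow) is an orphan of myelinating oligodendrocytes, known as a substrate of parkin. It was at 23.8, 25.3, 26.3 and 27.0 CPM in the 4 AL mice, 18.8, 20.6, 20.8 and 22.1 CPM in DR mice, and 28.2, 27.1, 25.6 and 26.2 CPM in KD mice. Every DR mouse was below every other mouse. Its log2 fold change was -0.31 (SE 0.07, adjusted p = 0.0206 by edgeR) in DR against AL and 0.38 (SE 0.06, adjusted p = 0.00217) in KD against DR. Between KD and AL mice it was 0.07, with a 95% interval from -0.05 to 0.19. The call in KD against DR held without each of the 8 mice in turn. That in DR against AL was lost without AL replicate 2, AL replicate 4, DR replicate 1 or DR replicate 3, at adjusted p from 0.0515 to 0.0695. Its relative Gpr37l1 was at 372 ± 17 CPM in AL, 321 ± 25.9 in DR and 358 ± 12.9 in KD mice (SD, n = 4), with a log2 fold change of -0.21 in DR against AL that missed the threshold (adjusted p = 0.0548).

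In tissue RNA, fewer cells of a type and less RNA per cell cannot be told apart, so marker genes of cell types are given beside the receptors. Of 7 markers of mature oligodendrocytes, 1 was called lower in DR against AL and 2 were called higher in KD against DR, among them Mag with a log2 fold change of 0.24 (adjusted p = 0.0211 by edgeR). DESeq2 and the exact test each called 1 of the 7 in DR against AL, and 3 were at an unadjusted p under 0.05, beside 18% of all genes. In KD against DR both tests called 3 of the 7. There 4 were at an unadjusted p under 0.05, beside 18.7% of all genes. The 7 markers summed to 2098 to 2704 CPM in AL, 1969 to 2457 CPM in DR and 2327 to 2533 CPM in KD mice, and none was at 0. Of 8 markers of Bergmann glia and astrocytes, 2, Aqp4 and Hopx, were called by edgeR lower in DR against AL and higher in KD against DR. DESeq2 and the exact test each called 3 of the 8 in DR against AL, and 4 were at an unadjusted p under 0.05. In KD against DR DESeq2 called 3 and the exact test 2, and 5 were at an unadjusted p under 0.05. The 8 markers summed to 3231 to 3353 CPM in AL, 2876 to 3044 CPM in DR and 3142 to 3277 CPM in KD mice, again with none at 0. The part of these cell types in the values of Gpr37 and Gpr37l1 was not tested.

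Gpr63 (chromosome 4, 24966407 to 25009233, plus strand) is an orphan that has been reported to respond to sphingosine phosphate and that the study's own cell lists place with Purkinje cell genes. Its level was 41.5, 37.9, 37.5 and 39.3 CPM in AL mice, 29.2, 32.3, 28.0 and 35.3 CPM in DR mice, and 39.5, 38.4, 41.2 and 38.9 CPM in KD mice. All 4 DR mice lay below the other 8. The log2 fold change was -0.32 (SE 0.07, adjusted p = 0.0218 by edgeR) in DR against AL and 0.34 (SE 0.07, adjusted p = 0.00685) in KD against DR. It was 0.02 in KD against AL, with an interval from -0.08 to 0.12. The call in KD against DR held without each mouse in turn, while that in DR against AL was lost without AL replicate 1, AL replicate 4, DR replicate 1 or DR replicate 3, at adjusted p from 0.0641 to 0.0814.

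Of 8 Purkinje cell markers, edgeR called 2 lower in DR against AL and higher in KD against DR, and did not call the other 6 in the first. One of the 2 was Car8, with a log2 fold change of -0.25 in the first (adjusted p = 0.0327 by edgeR). More of them moved by looser rules. Of the 8, 6 were at an unadjusted p under 0.05 in DR against AL, beside 18% of all genes. DESeq2 called 5 there and the exact test 4. In KD against DR 4 of the 8 were at an unadjusted p under 0.05, beside 18.7% of all genes. DESeq2 called 4 in that comparison and the exact test 2. The 8 markers summed to 8605 to 9194 CPM in AL, 7277 to 8417 CPM in DR and 8529 to 8761 CPM in KD mice, and none was at 0. Their part in the change of Gpr63 was not tested. Adgrl2, the other receptor on the study's Purkinje list, had log2 fold changes of -0.03 and 0.03 in the same comparisons and was called in neither.

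Gpr158 (chromosome 2, 21367542 to 21830547, plus strand) is a class C orphan that recruits the complex of Rgs7 and Gnb5 to the membrane and that has been described as a receptor for glycine. It was at 190, 173, 188 and 197 CPM in AL mice, 160, 166, 164 and 175 CPM in DR mice, and 200, 187, 201 and 189 CPM in KD mice. DR mice lay below all KD mice, and 1 DR mouse lay above the lowest AL mouse. The log2 fold change of 0.22 in KD against DR (SE 0.04, adjusted p = 0.00772 by edgeR) passed without each mouse in turn, and that of -0.17 in DR against AL did not pass (adjusted p = 0.0785). Between KD and AL mice it was 0.06, with an interval from -0.04 to 0.15. Its class fellow Gpr179, at 0.217 RPKM, was not called.

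Gpr26 and Gpr101 are orphans that raise cyclic AMP without a ligand and that are known mainly from forebrain and hypothalamus. Gpr26 (chromosome 7, 131966460 to 131994405, plus strand) was at 11.6, 12.4, 13.2 and 11.7 CPM in AL mice, 7.96, 8.42, 6.93 and 10.6 CPM in DR mice, and 12.3, 10.8, 10.7 and 11.2 CPM in KD mice. DR replicate 4 came close to the lowest KD mouse, but the groups did not overlap. Its log2 fold change was -0.52 (SE 0.11, adjusted p = 0.0200 by edgeR) in DR against AL and 0.41 (SE 0.11, adjusted p = 0.0352) in KD against DR. For KD against AL the value was -0.11, with an interval from -0.27 to 0.05. The first call was lost without AL replicate 2, DR replicate 1 or DR replicate 3, at adjusted p from 0.0542 to 0.0611. The second held without DR replicate 4 and was lost without each of the other 7 mice, at adjusted p from 0.0600 to 0.118.

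Gpr101 (chromosome X, 57496668 to 57503757, minus strand) had the largest fold change among the receptors called and the lowest level, with 9 to 63 counts in a library. It was at 1.08, 0.980, 1.26 and 1.08 CPM in AL mice, 0.561, 0.281, 0.546 and 0.577 CPM in DR mice, and 1.64, 0.656, 1.23 and 1.34 CPM in KD mice. Every DR mouse was below the others, although KD replicate 2 lay near the DR mice. The log2 fold change was -1.14 (SE 0.25, adjusted p = 0.0229 by edgeR) in DR against AL and 1.29 (SE 0.30, adjusted p = 0.0197) in KD against DR. Against AL its level on DR fell by 54.7%. Between KD and AL mice the value was 0.15, with an interval from -0.36 to 0.67. Without DR replicate 2, the lowest library, the values were -0.96 (adjusted p = 0.0531) and 1.11 (adjusted p = 0.0454). The first call was also lost without AL replicate 1, AL replicate 4 or DR replicate 3, and the second without KD replicate 1, KD replicate 3 or KD replicate 4, at adjusted p up to 0.0766. Forebrain markers, 3 of 5 of which passed the filter, gave 0 calls in each comparison by edgeR, DESeq2 or the exact test and 0 at an unadjusted p under 0.05. Their sum was 148 to 158 CPM in AL, 133 to 154 CPM in DR and 141 to 156 CPM in KD mice. Their part in the values of Gpr26 and Gpr101 was not tested.

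Gpr4 (chromosome 7, 19212538 to 19224174, plus strand) senses extracellular protons, couples to Gs and is known from endothelium. It was at 4.14, 3.84, 3.50 and 4.31 CPM in AL mice, 2.17, 3.09, 1.98 and 2.86 CPM in DR mice, and 3.79, 3.65, 3.83 and 3.60 CPM in KD mice. DR mice were below all others, and KD mice lay within the AL range. It had a log2 fold change of -0.65 (SE 0.15, adjusted p = 0.0336 by edgeR) in DR against AL and 0.56 (SE 0.14, adjusted p = 0.0333) in KD against DR. In KD against AL it was -0.08, with an interval from -0.31 to 0.14. In DR against AL the call held without AL replicate 3, DR replicate 2 or DR replicate 4 and was lost without each of the other 5 mice, at adjusted p up to 0.102. In KD against DR it held without DR replicate 2 or DR replicate 4 and was lost without each of the other 6, at adjusted p up to 0.105.

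Adgra2 (chromosome 8, 27085583 to 27123436, plus strand), with Reck, lets vessels of the brain answer to Wnt7. It was at 31.5, 29.9, 30.1 and 33.8 CPM in AL mice, 23.3, 28.5, 29.0 and 29.4 CPM in DR mice, and 31.9, 35.2, 33.7 and 31.0 CPM in KD mice. DR mice were lowest in both comparisons, with DR replicate 1 below the others. It had a log2 fold change of 0.26 (SE 0.07, adjusted p = 0.0494 by edgeR) in KD against DR and -0.19 (adjusted p = 0.201) in DR against AL. For KD against AL the value was 0.07, with an interval from -0.04 to 0.19. The call in KD against DR was lost whenever a mouse other than DR replicate 4 was left out, at adjusted p up to 0.130. It was also lost with scaling by library size only (adjusted p = 0.0582) and with genes above a mean of 10 CPM alone (adjusted p = 0.0548). Without DR replicate 1 the value was 0.18 (adjusted p = 0.0937). Of 6 endothelial markers 0 were called in DR against AL by edgeR, DESeq2 or the exact test. There 1 was at an unadjusted p under 0.05, beside 18% of all genes. In KD against DR 3 of the 6 were at an unadjusted p under 0.05, beside 18.7% of all genes. EdgeR called 1 of them higher there, Kdr, and DESeq2 and the exact test each called 2 of the 6 markers. Their sum was 158 to 188 CPM in AL, 166 to 169 CPM in DR and 171 to 187 CPM in KD mice, with none at 0, and its part in the values of Gpr4 and Adgra2 was not tested.

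Adgrb2 (chromosome 4, 129984870 to 130022633, plus strand) belongs to the brain-specific angiogenesis inhibitors. It was at 100, 108, 113 and 90.3 CPM in AL mice, 71.8, 96.2, 79.6 and 82.6 CPM in DR mice, and 99.5, 105, 89.7 and 94.3 CPM in KD mice. DR replicate 2 lay above the lowest AL mouse, so the diets overlapped. The log2 fold change in DR against AL was -0.32 (SE 0.08, adjusted p = 0.0461 by edgeR), and that of 0.23 in KD against DR did not pass (adjusted p = 0.0760), although it did without DR replicate 2 (0.31, adjusted p = 0.00790). Between KD and AL mice it was -0.08, with an interval from -0.22 to 0.05. The call held without AL replicate 4 or DR replicate 2 and was lost without each of the other 6 mice, at adjusted p up to 0.129. It was also lost with scaling by library size only and with genes above a mean of 10 CPM alone (adjusted p = 0.0563 in both). Both other B receptors had negative values in DR against AL, -0.21 for Adgrb1 (adjusted p = 0.133) and -0.08 for Adgrb3 (adjusted p = 0.383), and neither was called.

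**Figure D3:**
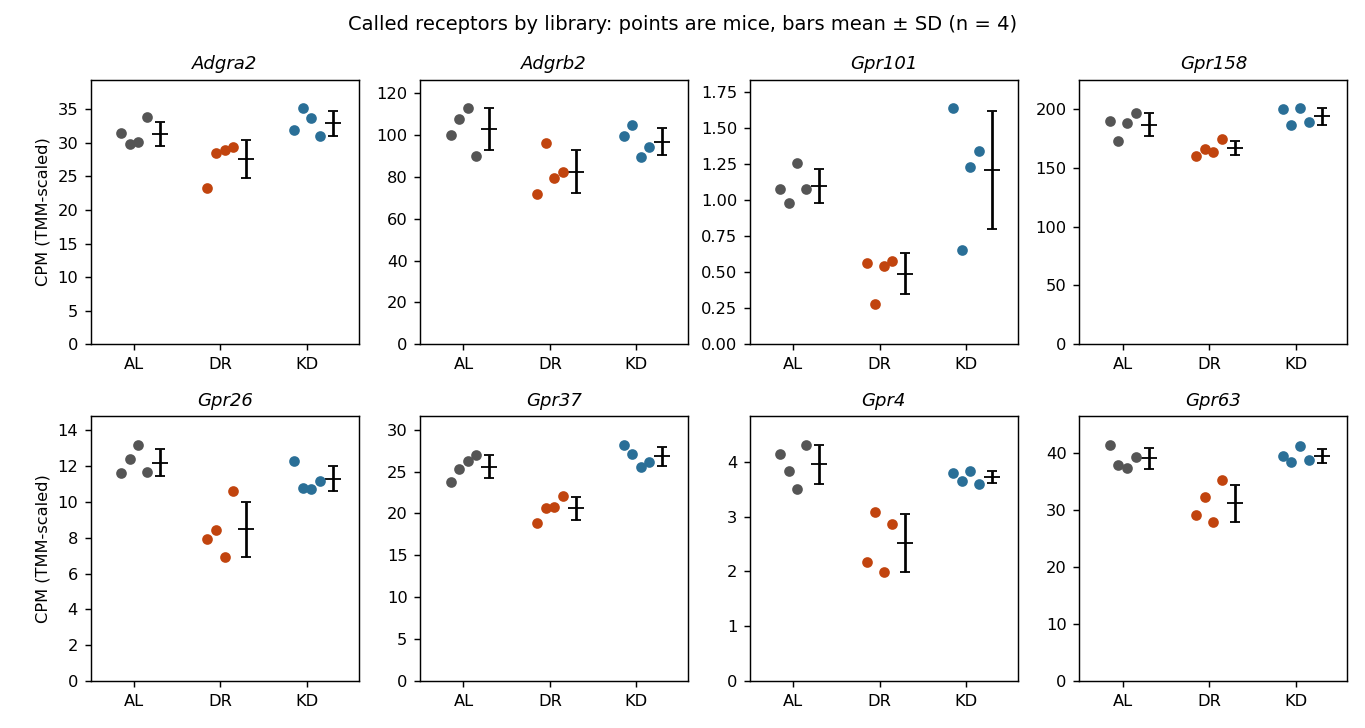
Level in CPM of the 8 receptors called in a comparison, in each of the 4 AL, 4 DR and 4 KD mice (points), with mean ± SD beside them and axes from 0. DR mice lie below all AL and KD mice in Gpr26, Gpr37, Gpr63, Gpr101, Gpr4 and Adgra2, and overlap AL mice in Adgrb2 and Gpr158.

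For 3 of the called receptors, Gpr4, Gpr101 and Adgrb2, the RefSeq start (GRCm38.p6) adjoined the gene start of the count table, and their 250 upstream bases are shown because all 3 genes were called lower on DR. They run 5′ to 3′ on the strand of the gene, and capitals mark the motifs found.

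Gpr4, chr7:19212288-19212537, plus strand: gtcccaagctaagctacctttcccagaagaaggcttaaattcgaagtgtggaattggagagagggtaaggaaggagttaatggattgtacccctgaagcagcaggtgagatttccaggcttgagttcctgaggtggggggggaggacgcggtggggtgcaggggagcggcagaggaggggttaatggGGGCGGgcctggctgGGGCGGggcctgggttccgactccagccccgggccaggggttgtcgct

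Gpr101, chrX:57503758-57504007, minus strand: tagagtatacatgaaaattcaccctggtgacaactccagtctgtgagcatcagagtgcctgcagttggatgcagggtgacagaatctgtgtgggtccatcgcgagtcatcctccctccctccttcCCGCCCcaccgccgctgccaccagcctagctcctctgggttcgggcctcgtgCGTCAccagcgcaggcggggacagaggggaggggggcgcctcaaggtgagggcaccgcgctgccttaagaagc

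Adgrb2, chr4:129984620-129984869, plus strand: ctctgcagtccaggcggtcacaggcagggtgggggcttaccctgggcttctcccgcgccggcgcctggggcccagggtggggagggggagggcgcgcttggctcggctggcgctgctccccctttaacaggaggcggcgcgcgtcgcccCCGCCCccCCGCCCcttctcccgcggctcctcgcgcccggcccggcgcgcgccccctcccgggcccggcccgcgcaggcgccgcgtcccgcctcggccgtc

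The motifs searched, on both strands, were the GC box GGGCGG, the CRE core TGACG, the TATA box TATAAA and the FoxO site GTAAACA. A RefSeq promoter was matched for 70 of the 96 receptors. Of the 8 called receptors 6 had one and Gpr26 and Adgra2 had none, and as Gpr63 had 3 windows there were 8 windows in all. The GC box was in 5 of these 8 windows, beside 32.7% of all 32851 promoters of this length. The CRE core was in 1, that of Gpr101, beside 17.8%, and the letters of the TATA box and the FoxO site were in 0, beside 12.4% and 3.17%. The promoters shown had a GC content of 61.2%, 62.4% and 81.6%, beside a median of 52.4% over all, and no motif shared bases with another. A match is given as a description of the window and not as a site of binding.

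By class, calls were spread thinly. Class names were set by hand, and the neuronal orphans include a member that the study's own cell lists place with Bergmann glia. In DR against AL the 22 rhodopsin-like neuronal orphans, of which 19 were tested, held 3 calls, the proton-sensing, prosaposin-linked and adhesion B classes 1 each, and the other classes 0. The medians of log2 fold change were negative in the adhesion A (-0.19) and B (-0.21) families, in which all 6 receptors were below 0. They were lower still in the proton-sensing and prosaposin-linked classes (-0.26 in the latter), with 2 receptors tested in each. The adhesion F family had a positive median (0.25), with 2 of 3 above 0. Medians were near 0 in the L family (-0.03), the SREB family (-0.01) and the neuronal orphans (0.0050). Of the 19 adhesion receptors tested, 14 were below 0 in DR against AL, beside 49% of all genes. In KD against DR 13 were above 0, where 50.8% of all genes were below 0. Apart from the called ones, Adgra3 had -0.26 in DR against AL (adjusted p = 0.0944) and Adgrl1 -0.16 (adjusted p = 0.0755), both with no overlap between diets. Gpr62 had a positive value on DR with no overlap, 0.31 at an adjusted p of 0.143. In KD against DR, Gpr146, which has been tied to cholesterol metabolism, had a value of -0.23 without overlap (adjusted p = 0.0727) and Gpr61 one of 0.27 (adjusted p = 0.107), and neither was called.

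Added up, the 96 receptors made 2868 ± 49.6 CPM in AL mice, 2653 ± 61.1 CPM in DR mice and 2868 ± 51.2 CPM in KD mice (SD, n = 4). DR mice reached 2588 to 2733 CPM and the others 2794 to 2937 CPM, without overlap. The adhesion receptors came to 1250 ± 22.8, 1131 ± 56.5 and 1232 ± 36.7 CPM and the Gpr receptors to 1617 ± 34.1, 1522 ± 36.3 and 1636 ± 17.6 CPM in AL, DR and KD mice. Without the 3 receptors of the highest level the sum was 1569 ± 43.1, 1471 ± 42.9 and 1565 ± 9.54 CPM. These sums are weighted towards Adgrl1, Gpr162 and Gpr37l1 and are given with no test.

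**Figure D4:**
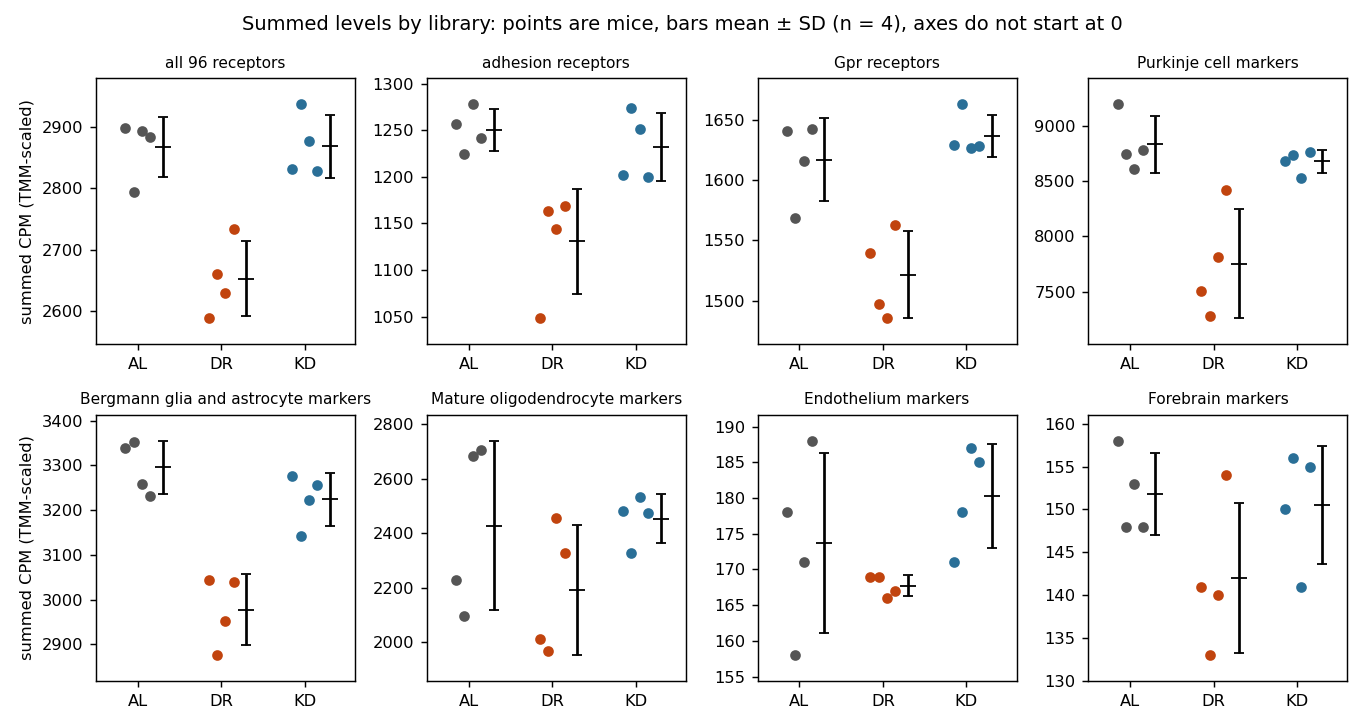
Summed CPM by mouse of all 96 receptors, of the adhesion and Gpr receptors, and of the marker lists of 5 cell types or regions, with mean ± SD (n = 4) and axes that do not start at 0. DR mice lie below all others for the receptors and for the Purkinje cell and Bergmann glia markers, and overlap the AL mice for the oligodendrocyte, endothelium and forebrain markers. For the endothelium markers DR mice, at 166 to 169 CPM, lie below all KD mice, at 171 to 187 CPM.

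Of 17 ligands and partners of adhesion receptors, 16 were tested in DR against AL and 1 was called, Tenm3, a teneurin that latrophilins bind, at 17.9 ± 1.70 CPM in AL and 13.3 ± 1.99 CPM in DR mice (log2 fold change -0.43, adjusted p = 0.0331 by edgeR). At an unadjusted p under 0.05 there were 4 of the 16, beside 18% of all genes, and DESeq2 and the exact test each called 2. Tenm2, another teneurin, had a log2 fold change of -0.26 and just missed the threshold (adjusted p = 0.0520). Tenm3 was higher in KD against DR at 17 ± 0.971 CPM (0.35, adjusted p = 0.0380). Of 8 partners of orphan receptors tested, 1 was called in DR against AL, Rgs7bp, an anchor of the Rgs7 complex, at 418 ± 8.60 CPM in AL and 368 ± 7.89 CPM in DR mice (-0.18, adjusted p = 0.0243). Rgs7 and Gnb5, which bind Gpr158, had log2 fold changes of -0.10 and 0.02 and were not called, nor was Psap, the precursor of the proposed ligand of Gpr37 and Gpr37l1, at -0.05. Of 16 receptor kinases, arrestins and adenylyl cyclases, 0 were called in DR against AL by edgeR, DESeq2 or the exact test. There 3 of the 16 were at an unadjusted p under 0.05, a share close to the 18% of all genes. In KD against DR edgeR called 1, Adcy8, higher at 43.9 ± 1.75 CPM in KD than at 35.2 ± 5.17 CPM in DR mice (0.32, adjusted p = 0.0306). DESeq2 and the exact test each called 1 there. Of these 16, 5 were at an unadjusted p under 0.05 in KD against DR, beside 18.7% of all genes. The lists of adhesion and orphan receptor partners had 2 of 16 and 1 of 8 at that level. In KD against AL the 3 lists held 0 calls by edgeR, DESeq2 or the exact test. They had 1, 0 and 1 at an unadjusted p under 0.05, beside 4.87% of all genes.

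Microglial receptors were at low levels. Gpr34 stood at 0.964 ± 0.1 RPKM in AL, 0.808 ± 0.184 in DR and 1.19 ± 0.339 RPKM in KD mice, and Adgre1, the macrophage marker F4/80, at 0.253 ± 0.0785, 0.230 ± 0.0406 and 0.193 ± 0.0679 RPKM. Neither was called in a comparison, and Gpr34 in KD against DR had a log2 fold change of 0.56 with an adjusted p of 0.164. Of 10 microglial markers 0 were called by edgeR in any comparison, while DESeq2 and the exact test each called 1 in KD against DR, and at an unadjusted p under 0.05 there were 2, 2 and 3 in DR against AL, KD against AL and KD against DR. Their sum was 74.4 to 77.8 CPM in AL, 68.4 to 73.7 CPM in DR and 72.3 to 83.4 CPM in KD mice. Of the labelled tissue's own markers, those of granule cells summed to 5692 to 6183 CPM and those of Purkinje cells to 7277 to 9194 CPM over all mice, beside 133 to 158 CPM for forebrain.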

How the data were processed

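The deposited table holds raw counts of reads per gene, which the authors made from poly(A) libraries (TruSeq RNA v2, a kit that does not mark strand). Per the labels, reads were trimmed with Trimmomatic 0.39, aligned with STAR 2.7.0f to GRCm38.p6 and counted with featureCounts of Subread 1.6.4. Whether counting used strand is not given in the sources used here, so receptors with over 10% of exonic length shared with another gene were marked uncertain.

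Symbols were taken from GENCODE for 54723 genes. Diets were compared by pairs, each on its own 8 libraries, with edgeR 4.0.16 in R 4.3.3: filterByExpr (minimum count 10, minimum total 15), TMM, the quasi-likelihood test, a prior count of 0.125 for fold changes and Benjamini-Hochberg adjustment over all genes tested, with a threshold of 0.05. Scripts were tested on simulated data. No block was used, since the labels pair no mice. Members, classes and gene lists were chosen with earlier results of these data known. Named in full were receptors called in any comparison, and by level the 12 highest and the highest of each class; others with no overlap between diets or near the threshold were named after their values were seen. A few genes are not reported here by name. DESeq2 1.42.0, the exact test, other scalings and filters, a fit of all 12 libraries and leaving out each mouse were alternatives.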

Additional observations from a re-analysis of the deposited data

Results flagged for a closer look

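The highest or lowest mouse of a diet was compared with the others of its group, by Dixon's test at 95%, for the 25 receptors described by level or call, which gave 75 groups of 4 mice and 3 flags. Chance flags about 1 in 20 such groups. Adgra2 was at 23.3 CPM in DR replicate 1, below the 28.5 to 29.4 CPM of the other DR mice. Gpr22 was at 90.6 CPM in the same mouse, above the 77.3 to 79.3 CPM of the others. Gpr101 was at 0.281 CPM in DR replicate 2, below 0.546 to 0.577 CPM in the others.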

How the results depend on the processing

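The call rule, the filter and single mice moved the number of receptors called more than their direction. In DR against AL, 6 receptors were called, and 9 with DESeq2, 9 with the exact test, 10 with no low-count filter and 3 among genes with a mean above 10 CPM. Leaving out 1 mouse gave 0 to 6. In KD against DR, 7 were called, and 10 with DESeq2, 8 with the exact test, 13 with no filter and 4 above 10 CPM, with 3 to 8 when 1 mouse was left out. All receptors called were lower on DR than on the other diet in these settings, except 1 of the 10 with DESeq2, 1 of the 13 with no filter and 1 of the 4 without KD replicate 4. In KD against AL, 0 receptors were called in every setting run. Over all genes DR against AL gave 583 calls, and 1012 with DESeq2, 983 with the exact test, 1258 with no filter and 235 to 712 without 1 mouse. KD against AL gave 0 genes, and 10 with DESeq2, 18 with the exact test, 118 with no filter and 0 to 6 without 1 mouse. KD against DR gave 942, and 1503 with no filter and 467 to 946 without 1 mouse. All-gene counts for DESeq2 and the exact test in KD against DR, and above 10 CPM in any comparison, are not given here. The receptor counts of those settings thus stand without a share of all genes beside them. With library size alone, 322 of 565 genes were higher in DR against AL and 376 of 993 in KD against DR, while the main scaling gave 252 of 583 and 463 of 942. The uncalled KD against AL values of Gpr101 and Gpr63 changed sign without 1 mouse, ranging over -0.025 to 0.35 and -0.0017 to 0.048. Gpr101 and Gpr4 lie under the 10 CPM filter and have no value there. No paired analysis was possible because the labels give no shared replicate numbers. The depth limits the 30 receptors left untested and the 12 tested below 1 CPM. The cause of these shifts was not tested.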

Other observations

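Of 5 markers of oligodendrocyte precursors edgeR called 0 in DR against AL, while DESeq2 and the exact test each called 2. There 2 were at an unadjusted p under 0.05, beside 18% of all genes. In KD against DR edgeR called 1, Enpp6, at a log2 fold change of 0.67 (adjusted p = 0.0191). DESeq2 and the exact test each called 1 in that comparison. Of the 5, 2 were at an unadjusted p under 0.05 there, beside 18.7% of all genes. The 5 had a sum of 108 to 123 CPM in AL, 99.3 to 112 CPM in DR and 110 to 118 CPM in KD mice. Choroid plexus markers summed to 9.56 to 10.7 CPM in AL, 9.32 to 11.2 CPM in DR and 8.24 to 17.1 CPM in KD mice. Of the 3 choroid plexus markers tested in KD against DR edgeR called 1, Ttr, at 2.16 (adjusted p = 0.0332), with 0.371 to 7.94 CPM in KD and 0.655 to 0.817 CPM in DR mice. Blood markers summed to 275 to 423 CPM in AL, 175 to 493 CPM in DR and 237 to 270 CPM in KD mice. In KD against AL edgeR called 0 of 5, DESeq2 1 and the exact test 4. All 5 were at an unadjusted p under 0.05 there, beside 4.87% of all genes. Receptors that sit next to one another in the genome had unequal levels outside the Adgrg1 and Adgrf5 loci as well: Gpr34 was at 0.989 RPKM and its neighbour Gpr82 on chromosome X at 0.00512 RPKM, whereas Adgrf4 and Adgrf2 on chromosome 17 were close, at 0.799 and 0.685 RPKM, as were Gpr18 and Gpr183 on chromosome 14, at 0.146 and 0.174 RPKM.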
